A study of Homo sapiens with 6 samples.

Results

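The replication-dependent histone cluster genes encode the bulk of the core histones H2A, H2B, H3 and H4 and the linker histone H1. They were taken as all genes whose current NCBI symbol begins with H2AC, H2BC, H3C or H4C, or is one of H1-1 to H1-5. Of 85 such symbols, 61 had at least 1 probe set assigned to that gene alone, out of 18712 genes measured. A further 8 were read only by probe sets shared between several genes, and 16 had no probe set. Of those 16, 15 were pseudogenes or a non-coding RNA and 1, H2BC12L, was protein coding. Among the 61 measured genes, H2BC20P was the single entry not annotated as protein coding.

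The data are Affymetrix expression arrays of U251, an established human glioma cell line. The control group (shCtrl, 3 arrays) received a negative control hairpin, and the knockdown group (shCPVL, 3 arrays) received a lentiviral hairpin specific for CPVL, a serine carboxypeptidase gene. All 6 arrays therefore came from hairpin-carrying cells, with no untreated cells among them. Nothing in the labels tells separate cultures from repeat arrays of 1 culture within a group. The p-values thus rest on array-to-array spread that may be technical, and nothing is said of selection or of single clones.

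Replication-dependent histone mRNAs are made in S phase, when newly copied DNA must be packaged. They differ from other mRNAs in that most end in a conserved stem-loop, bound by the protein SLBP, and carry no poly(A) tail. Some of these genes are also known to give polyadenylated transcripts, but which of the members do so was not looked up here. The labelling kit used here primes from poly(A), so the values mainly read whatever polyadenylated RNA a histone gene gives. Most measured members were dim. The mean over all arrays lay among the dimmest 40% of genes, below 6.63 on the log2 scale, for 50 of the 61 members, and 11 were brighter.

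The labels and the RNA were checked first. CPVL was at 8.27 ± 0.11 (log2, SD, n = 3) in shCtrl and 7.28 ± 0.09 in shCPVL, with no overlap of the groups. Its adjusted p was 8.3e-05 in limma, and the two-sided exact permutation p was 0.1, which no pair of groups of 3 can go below. The glial and glioma markers VIM, CD44, SOX2 and NES were bright in both groups and not called, while 4 of 9 such markers, GFAP among them, were called lower. Of 16 markers of other cell types, only SYT1, a neuronal gene, was called (0.48 higher in shCPVL). The leukocyte gene PTPRC and the epithelial gene EPCAM were the dimmest of the 16 and stood at background, at 3.41 and 3.35 in shCtrl. Others were brighter. Microglial and macrophage markers reached 6.39 in shCtrl and epithelial ones 6.33. Oligodendrocyte markers lay at 5.62 to 6.21, neuronal ones at 6.88 to 7.27 and endothelial ones at 6.70 to 8.37. The distance between the 3' and 5' probe sets of beta-actin, a measure of RNA integrity, was 0.24 to 0.33 in shCtrl and 0.28 to 0.32 in shCPVL. All 18 hybridisation control probe sets were higher in shCPVL, by 0.16 to 0.41, as were 22 of 24 poly(A) spike controls, and their part in the results below was not tested.

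The histone cluster genes that changed did so in both directions. Of the 61 members, 7 rose and 4 fell in shCPVL at an adjusted p under 0.05, and 50 were not called. The share that rose was 11.5%, against 8.45% of all genes, and the share that fell was 6.56%, against 11.6% of all genes. Both shares are of the order of the background. The median change of the members was 0.01, beside −0.01 for all genes. With a fold of at least 1.5 in addition, 3 members rose and 0 fell, where 1.22% of all genes rose and 1.29% fell. No member was lower by that much at any p. In such bulk RNA, a change in the share of cells in S phase and a change in histone RNA per cell cannot be told apart.

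The groups did not overlap in 18 members, 11 higher and 7 lower in shCPVL, beside 16.1% and 19.8% of all genes. The 7 of these that missed the adjusted threshold were H2AC11, H3C6, H3C10 and H1-2, all higher, and H4C4, H2BC13 and H4C1, all lower. Of the 11 brighter members, H2AC6, H2BC12, H2BC5 and H3C4 were called higher and H4C3 lower. When the dimmest 40% of genes were left out, 17.2% of the remaining genes were called higher and 23.3% lower.

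**Figure D1:**
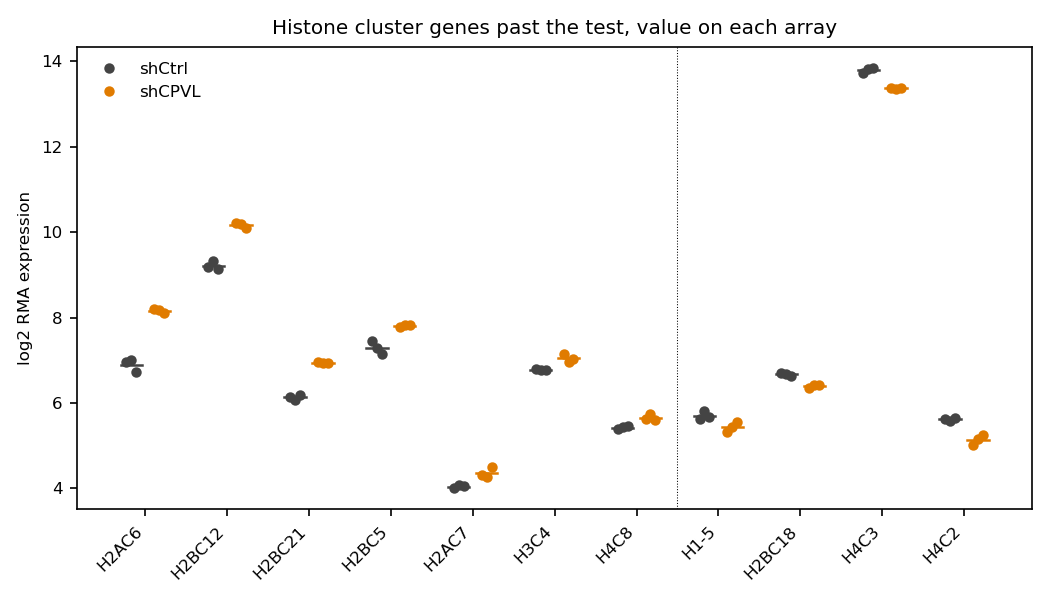
Log2 RMA expression of the 11 called histone cluster genes on each array, with shCtrl in grey, shCPVL in orange and a line at each group mean. The 7 genes left of the dotted line rose and the 4 on the right fell, and the groups do not overlap in any of them. Heights of different genes come from different probe sets and are not comparable.

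H2A genes gave the greatest single change. H2AC6, a canonical H2A gene, read 6.95, 7.01 and 6.72 in shCtrl and 8.20, 8.18 and 8.11 in shCPVL. Every shCPVL array lay above every shCtrl array by more than the spread within either group. The change was 1.27 (SE 0.08, limma adjusted p = 3.7e-05), a 2.41-fold increase. H2AC6 was read by a single probe set of the s_at kind, which can also hybridise with near-identical transcripts. In the authors' deposited table that probe set aligns to chromosome 6 from 26124396 to 26138605 on the plus strand, in a build that the table does not name.

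H2AC7 was the other H2A gene that rose, and it was dim. Its values were 4.01, 4.08 and 4.05 in shCtrl and 4.31, 4.27 and 4.50 in shCPVL, a change of 0.32 (SE 0.07, adjusted p = 0.015). The call was lost without shCtrl replicate 1 (adjusted p = 0.059). Its mean lay at the 7.79th percentile of all genes, where signal is mostly background. The other 13 measured H2A genes were not called. H2AC11 read 6.45, 6.62 and 6.27 in shCtrl and 6.80, 6.64 and 6.75 in shCPVL (0.28, adjusted p = 0.067), so the groups lay close to each other without overlapping. Its other probe set differed by −0.14, and the mean of both by 0.07 (adjusted p = 0.665). Differences of 0.01 to 0.08 were found for H2AC17, H2AC13, H2AC1, H2AC8, H2AC15, H2AC4, H2AC25 and H2AC16, and of −0.03 to −0.05 for H2AC14, H2AC20, H2AC12 and H2AC21.

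H2B genes supplied most of the remaining increases. H2BC12 encodes a canonical H2B and was bright enough to be well measured. It read 9.19, 9.32 and 9.14 in shCtrl and 10.22, 10.18 and 10.09 in shCPVL, a change of 0.95 (SE 0.06, adjusted p = 5.1e-05). All shCPVL arrays were higher, and the increase was 1.93-fold. Its probe set covers chromosome 6, minus strand, 27105619 to 27114634. A further H2BC12 probe set was dim, at 4.31 in shCtrl and 4.32 in shCPVL.

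H2BC21 lies in the smaller histone cluster at 1q21. Its values were 6.15, 6.07 and 6.18 in shCtrl and 6.97, 6.94 and 6.93 in shCPVL, again with no overlap. The change was 0.81 (SE 0.05, adjusted p = 3.8e-05), or 1.75-fold. The gene has 3 probe sets, and the remaining pair held identical values on all 6 arrays, at 4.14 in shCtrl and 4.11 in shCPVL. With the mean of the 3 the difference was 0.25 and not called (adjusted p = 0.069), and with their median it turned to −0.03.

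H2BC5, another H2B gene on chromosome 6, rose on each of its 3 probe sets. The probe set that represents the gene read 7.45, 7.30 and 7.14 in shCtrl and 7.78, 7.82 and 7.83 in shCPVL, a change of 0.51 (SE 0.08, adjusted p = 0.0025). A probe set whose alignment runs over 13230 bases, against 526 for the representative one, read 6.79, 6.84 and 6.92 in shCtrl and 7.92, 7.90 and 7.81 in shCPVL. Its change was 1.03 (SE 0.06, adjusted p = 1.3e-05 over all probe sets). The difference between these changes was 0.51, given as a description since the pair was chosen after its values were seen.

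H2BC18, also at 1q21, was the H2B gene that fell. It read 6.69, 6.68 and 6.64 in shCtrl and 6.34, 6.43 and 6.42 in shCPVL, a change of −0.27 (SE 0.05, adjusted p = 0.0061). Its alignment covers chromosome 1, minus strand, 149781960 to 149783928. Its 4 probe sets disagreed, and the other 3 align at several places. A further s_at probe set was lower by a called −0.40, whereas the others differed by 0.17 and −0.06 and were not called. With the mean of all 4 the difference was −0.14 and not called (adjusted p = 0.141). The 15 other measured H2B genes were not called. H2BC11 stood highest among them at 0.13, followed by H2BC6, H2BC4, H2BC10, H2BC14, H2BC7 and H2BC1 at 0.01 to 0.08. H2BC15, H2BC3, H2BC17, H2BC8, H2BC26 and H2BC9 lay at −0.03 to −0.09, the pseudogene H2BC20P at −0.12 and H2BC13 at −0.14.

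H3 genes, which encode the histone that carries most of the studied lysine methylation marks, gave a single call among 10 measured. H3C4 read 6.80, 6.77 and 6.78 in shCtrl and 7.15, 6.96 and 7.04 in shCPVL, a change of 0.27 (SE 0.06, adjusted p = 0.015). Its aligned region contains that of H2AC7 on the same strand, so their signals cannot be fully separated. A probe set assigned to both genes was at 5.16 in shCtrl and 5.31 in shCPVL and was not called (adjusted p = 0.20 over all probe sets). The other 9 H3 genes were not called. H3C6 (0.23) and H3C10 (0.18) had groups that did not overlap, and a second, s_at probe set of H3C10 was called (0.39, adjusted p = 0.025 over all probe sets). H3C11, H3C1 and H3C7 lay at 0.03 to 0.13, and H3C12, H3C8, H3C3 and H3C2 at −0.001 to −0.15.

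Of 12 measured H4 genes, 2 fell and 1 rose. H4C3 was the brightest cluster member by its own probe set, at the 99.7th percentile of all genes. It read 13.73, 13.82 and 13.84 in shCtrl and 13.38, 13.35 and 13.37 in shCPVL, so each shCPVL array was lower. The change was −0.43 (SE 0.05, adjusted p = 8.4e-04), or 1.35-fold lower, and its other probe set changed by −0.37. Both probe sets are of the x_at or s_at kind, so near-identical H4 transcripts may add to them.

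H4C2 fell from 5.63, 5.58 and 5.65 in shCtrl to 5.01, 5.16 and 5.26 in shCPVL. The change was −0.48 (SE 0.07, adjusted p = 0.0021), the lowest of all members. H4C8, by contrast, was higher in shCPVL, with 5.38, 5.44 and 5.46 against 5.64, 5.74 and 5.60 (0.23, SE 0.06, adjusted p = 0.022). That call was lost without shCtrl replicate 1 or shCPVL replicate 2 (adjusted p = 0.0965 and 0.0964), and with an intensity trend in limma's variance model (0.07, and 0.0741 when also robust). The other 9 H4 genes were not called. H4C1 (−0.22, adjusted p = 0.0635) was closest to the threshold. H4C5, H4C16, H4C6, H4C4, H4C7 and H4C9 lay at −0.09 to −0.17, and H4C12 and H4C13 at 0.01 and 0.03.

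H1 linker histone genes showed a single change near the threshold. H1-5 read 5.64, 5.81 and 5.66 in shCtrl and 5.31, 5.44 and 5.56 in shCPVL (−0.26, SE 0.08, adjusted p = 0.045). Leaving out shCPVL replicate 3 kept the call, and leaving out any of the other 5 arrays ended it (adjusted p = 0.072 to 0.123). The bright linker gene H1-2 was at 8.92 ± 0.04 in shCtrl and 9.03 ± 0.03 in shCPVL and was not called (adjusted p = 0.16). The differences of H1-1, H1-3 and H1-4 were 0.04, −0.14 and −0.12, none of them called.

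**Figure D2:**
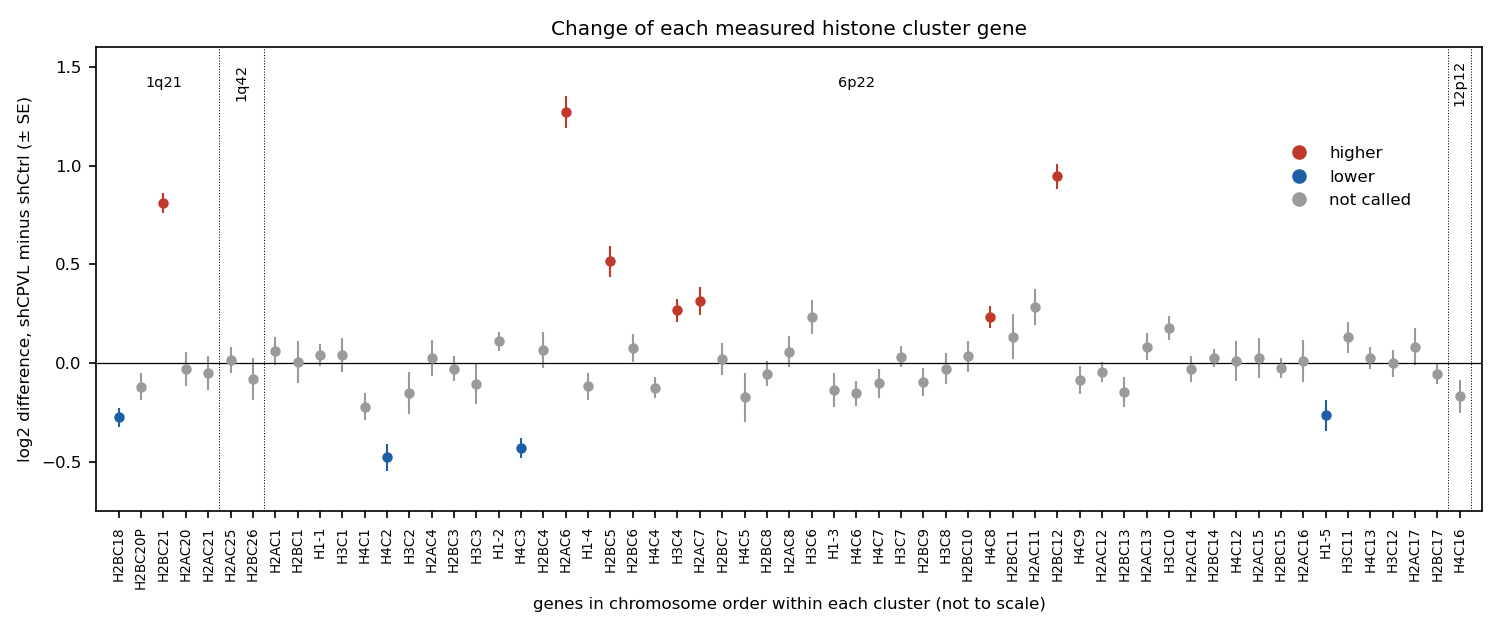
Log2 difference (shCPVL minus shCtrl, bars are SE of the fit on 6 arrays) of the 61 measured histone cluster genes, in chromosome order within the clusters at 1q21, 1q42, 6p22 and 12p12. Red and blue points passed an adjusted p under 0.05. Among the genes drawn, the called ones stand singly between uncalled neighbours, apart from the overlapping genes H3C4 and H2AC7. Genes read only by shared probe sets are not drawn.

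The called genes were scattered through the clusters. At 6p22, 6 of 53 measured genes rose and 3 fell, beside 8.45% and 11.6% of all genes, with a median change of 0.02. At 1q21, 1 of 5 rose and 1 fell, and neither gene at 1q42 nor the single one at 12p12 was called. Genes read only by shared probe sets are not in these counts. Of these, H4C14 with H4C15 and H2AC18 with H2AC19 had shared probe sets that rose, given next. The first aligned place of each lies between H2BC18 and H2BC21.

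Probe sets shared between near-identical genes at 1q21 added to the increases. H2AC18 and H2AC19, a duplicated pair of H2A genes, were read together by an x_at and an s_at probe set. The x_at probe set read 9.13, 9.26 and 9.08 in shCtrl and 9.93, 9.97 and 9.996 in shCPVL (0.81, SE 0.06). The s_at probe set changed by 0.83 (SE 0.06), and both passed over all 49293 probe sets (adjusted p = 6.3e-05 and 6.0e-05). H4C14 and H4C15 were read together by a probe set with 7.21, 7.30 and 7.06 in shCtrl and 7.91, 7.99 and 7.98 in shCPVL (0.77, SE 0.07, adjusted p = 1.6e-04). A dimmer probe set of that pair, at 4.88 in shCtrl, differed by −0.15 and was not called. Thus 3 of 9 shared probe sets rose and 0 fell in limma, with 0 lower at an unadjusted p under 0.05 too. Of all probe sets, 7.93% were called higher and 10.6% lower. The 3 are not independent, since both probe sets of H2AC18 with H2AC19 are among them. The sets for H3C13, H3C14 and H3C15 and for H4C11 with H4C12 differed by −0.02 to 0.07 and were not called. Which member of a shared set gave the signal cannot be told apart.

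Over single probe sets, 11 of the 104 that belong to 1 member gene were called higher and 7 lower, beside 7.93% and 10.6% of all probe sets. Beyond the genes already described, the called ones included H2BC6 (0.20) and H2BC9 (−0.28), each on 1 of 3 probe sets.

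The members with the greatest increases had a probe set with a long alignment. Typical cluster genes are short and intronless, and the median of the longest alignment per gene was 563 bases among the 51 members whose alignments stayed under 2000 bases. The longest alignment exceeded 2000 bases in 10 members, a limit chosen after the values were seen. In 3 of them the long alignment is not that of the probe set that represents the gene. These are H2BC5, with the second probe set given above, H2BC18, with uncalled ones of 29957 and 19195 bases, and H2AC15, with uncalled ones of 3976 bases that differed by 0.30 and 0.12. Of these 10, H2AC6, H2BC12, H2BC5, H2BC21 and H3C4 rose, H2BC18 fell, and H2AC11, H2BC4, H2AC15 and H3C12 were not called. A long alignment did not always go with a rise within a gene either. The dim further probe sets of H2BC12 (3974 bases) and H2BC21 (3505 bases) differed by 0.006 and −0.03 and were not called. Of the other 51 members 2 rose and 3 fell. The median change was 0.28 in the first set and −0.03 in the second. The sets also differ in brightness, with 6 of 10 against 44 of 51 members among the dimmest 40% of genes, and the part of brightness in this was not tested. The shared probe sets of H2AC18 with H2AC19 and of H4C14 with H4C15 rose although their alignments spanned 397 to 729 bases. The alignments of H2BC12 and H2BC21 also contain those of other cluster genes, none of which was called. These are H4C9 for H2BC12, on the other strand, and H2AC20 and H2AC21 for H2BC21. H2AC20 lies on the other strand and H2AC21 on the same strand as H2BC21.

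**Figure D3:**
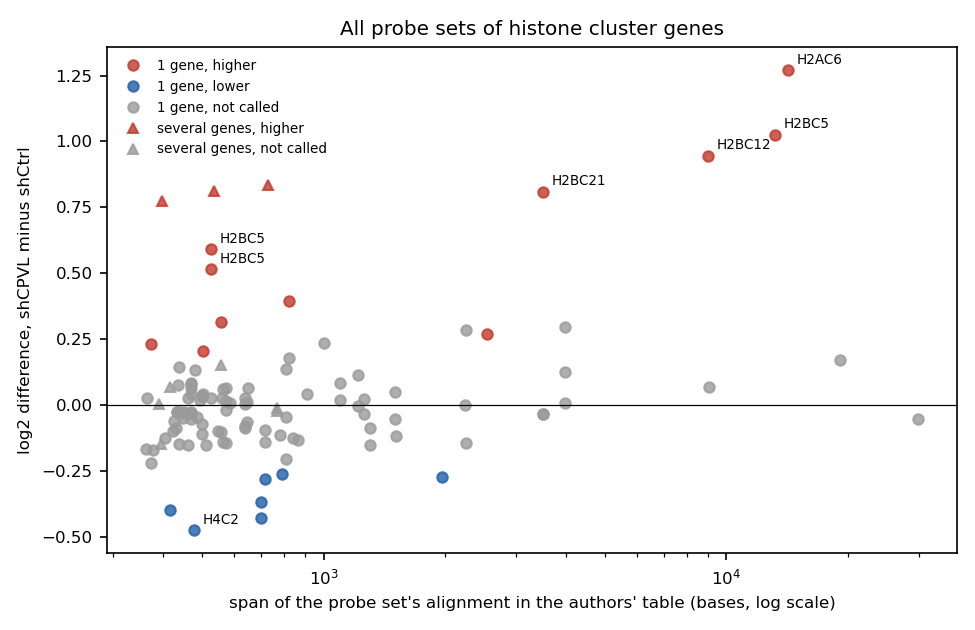
Log2 difference (shCPVL minus shCtrl) of all 113 probe sets of histone cluster genes against the span of their alignment in the authors' table (bases, log scale). Circles belong to 1 gene and triangles to several, coloured by call over all probe sets. H2AC6, H2BC5, H2BC12 and H2BC21 are called at spans above 2000 bases, as is H3C4 (0.27), while uncalled probe sets with such spans reach at most 0.30, in H2AC15. Dim uncalled probe sets of H2BC12 (3974 bases, 0.006) and H2BC21 (3505 bases, −0.03) also have such spans.

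Many H2A and H2B genes are arranged head to head around a common promoter region. By the authors' alignments and the promoter windows of RefSeq, 14 head-to-head pairs of cluster genes had both measured. All but 2 join an H2A to an H2B gene, the others being H3C7 with H2BC9, whose gap of 960 bases is the widest, and H3C4 with H2BC7, which also faces H2AC7. In 5 pairs 1 gene was called, in 9 neither was, and in none were both. Of all genes, 8.45% were called higher and 11.6% lower. At such shares few pairs would have both genes called, so these counts say little about pairing. The pairs of H2BC7 with H2AC7 and with H3C4 are 1 site, since both alignments end at the same base, with a gap of 195 bases. H2AC6 faces H2BC4, which read 4.59, 4.63 and 4.52 in shCtrl and 4.58, 4.50 and 4.86 in shCPVL. H2BC12 faces H2AC12, which read 3.60, 3.56 and 3.53 in shCtrl and 3.54, 3.46 and 3.55 in shCPVL. H2BC21 faces H2AC20 by the promoter windows only, since their alignments overlap. H2AC20 read 8.77, 8.90 and 8.61 in shCtrl and 8.83, 8.75 and 8.61 in shCPVL. The groups overlapped in all 3 partners, and none was called. H2BC4 and H2AC12 were dim, at the 12.1th and 2.38th percentile, which limits what can be seen of them, whereas H2AC20 stood at the 69.8th. In shCtrl, H2AC12 (3.56) was near the background markers PTPRC (3.41) and EPCAM (3.35), whereas H2BC4 (4.58) was above them.

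The promoters of the 4 genes with the greatest increases, and of H4C2 as a gene that fell, are given because 3 of them serve the head-to-head pairs just described. The sequences are from RefSeq on GRCh38.p14 and run from 250 bases before to 50 bases after the gene start, on the gene's strand. Capitals mark CCAAT, the octamer ATTTGCAT and TATAAA, each on either strand. CCAAT is the box bound by NF-Y, the octamer is the element through which POU2F1 (Oct-1) acts on H2B genes, and TATAAA is a TATA box. The windows are chr6:26123922-26124221 (plus strand) for H2AC6, chr6:27146809-27147108 (minus) for H2BC12, chr1:149886633-149886932 (minus) for H2BC21, chr6:26157871-26158170 (plus) for H2BC5 and chr6:26027234-26027533 (minus) for H4C2.
H2AC6: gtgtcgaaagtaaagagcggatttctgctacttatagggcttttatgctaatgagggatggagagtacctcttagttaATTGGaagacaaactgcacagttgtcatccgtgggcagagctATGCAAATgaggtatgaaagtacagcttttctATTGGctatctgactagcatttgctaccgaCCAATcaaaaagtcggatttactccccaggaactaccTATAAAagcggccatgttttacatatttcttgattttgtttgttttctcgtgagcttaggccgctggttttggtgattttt
H2BC12: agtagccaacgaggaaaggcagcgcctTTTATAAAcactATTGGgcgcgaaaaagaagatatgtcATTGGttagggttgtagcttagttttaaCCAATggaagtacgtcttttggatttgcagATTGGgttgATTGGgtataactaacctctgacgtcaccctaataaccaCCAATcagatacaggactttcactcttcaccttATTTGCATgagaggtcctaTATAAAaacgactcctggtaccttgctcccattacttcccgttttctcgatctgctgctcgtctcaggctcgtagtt
H2BC21: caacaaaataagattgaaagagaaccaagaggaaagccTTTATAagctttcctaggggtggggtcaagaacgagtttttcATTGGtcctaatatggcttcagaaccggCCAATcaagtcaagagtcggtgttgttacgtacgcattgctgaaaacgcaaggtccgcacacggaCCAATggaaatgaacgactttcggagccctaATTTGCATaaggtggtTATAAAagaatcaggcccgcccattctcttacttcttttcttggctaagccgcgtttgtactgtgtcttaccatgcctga
H2BC5: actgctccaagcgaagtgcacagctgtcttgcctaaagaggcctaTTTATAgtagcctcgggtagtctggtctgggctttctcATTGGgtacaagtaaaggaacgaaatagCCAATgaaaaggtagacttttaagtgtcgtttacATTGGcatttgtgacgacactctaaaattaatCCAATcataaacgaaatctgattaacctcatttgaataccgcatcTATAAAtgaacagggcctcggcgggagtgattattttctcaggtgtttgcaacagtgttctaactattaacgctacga
H4C2: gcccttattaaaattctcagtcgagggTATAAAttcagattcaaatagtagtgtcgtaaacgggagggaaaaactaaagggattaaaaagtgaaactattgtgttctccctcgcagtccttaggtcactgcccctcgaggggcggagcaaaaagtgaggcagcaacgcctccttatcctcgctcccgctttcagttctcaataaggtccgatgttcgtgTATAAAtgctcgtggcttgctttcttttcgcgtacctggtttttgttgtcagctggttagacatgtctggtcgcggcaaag
The TATAAA nearest the start began 31 bases before it in H2AC6, 27 in H2BC12, 30 in H2BC21, 28 in H2BC5 and 31 in H4C2. CCAAT occurred 3 times in H2AC6, 6 in H2BC12, 3 in H2BC21, 4 in H2BC5 and 0 times in H4C2. The octamer was present once in H2AC6, H2BC12 and H2BC21 and was not found in H2BC5 or H4C2.

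These motifs are general features of the clusters. Of the 61 measured members, 55 had a promoter window in the table. CCAAT on either strand occurred in 87.3% of them, against 35.7% of all 27305 promoter windows, and at least 3 times in 60.0% against 3.42%. The octamer occurred in 47.3% against 1.8%, and TATAAA in 65.5% against 12%. The sequence GCGCGAAA, a form of the E2F site, occurred in 21.8% against 0.546%. The interferon-stimulated response element core, a GAAA repeat with a spacer of 2 bases, occurred in 7.27% against 3.65%.

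The counts by call follow, with no test between them. Among the 7 members that rose, CCAAT occurred at least 3 times in 6 and the octamer occurred in 5. Among the 45 that were not called the counts were 27 and 20. Of the 3 members that fell and had a window, 0 had 3 or more CCAAT and 1 had the octamer. At least 1 CCAAT occurred in 6 of the 7, 40 of the 45 and 2 of the 3. TATAAA occurred in 4, 31 and 1 of these, and GCGCGAAA in 1, 10 and 1. The groups also differ in histone family. H2A and H2B gave 2 and 3 of the genes that rose and 0 and 1 of those that fell, and H4 gave 1 and 2. The part of family was not tested. The interferon-type repeat was found in 0 of the 7 that rose and in 4 of those not called. Head-to-head genes share most of their window, so these counts are not independent. A match is only a run of letters and shows no binding.

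Histone variant genes outside the symbol rule were set beside the cluster genes. Many variants are made outside S phase too, though H2AX also gives a stem-loop mRNA and CENPA is made mainly late in the cycle. Of the 11 replication-independent variants reported here, 4 fell and 0 rose in limma (0 higher at an unadjusted p under 0.05), with a median change of −0.14. The centromeric H3 variant CENPA fell by 0.30 (SE 0.04) from 11.38 ± 0.02, MACROH2A2 by 0.27 (SE 0.05) and H2AZ2 by 0.26 (SE 0.05). H2AX, the variant phosphorylated at DNA breaks, fell by 0.24 (SE 0.05).

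The genes that control histone mRNA were mixed. Of 10 genes of histone transcription, 1 rose and 4 fell. CDK2 fell by 0.89 (SE 0.08) and its partners CCNE1 by 0.85 and CCNE2 by 0.66. This kinase phosphorylates NPAT, the coactivator of the histone clusters, which itself was at 8.20 in shCtrl and not called (−0.13, adjusted p = 0.21). POU2F1, the octamer-binding factor, rose from 6.77 ± 0.03 to 7.05 ± 0.04 (0.27, SE 0.05, adjusted p = 0.0051).

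Of 17 genes of histone mRNA 3' end formation and decay, 1 rose and 4 fell. The stem-loop binding protein gene SLBP was bright and not called, at 11.29 in shCtrl, with a difference of −0.04 (SE 0.05, adjusted p = 0.64). CPSF2, a subunit of the cleavage complex, fell by 0.53 (SE 0.06), and CSTF2, which acts in both histone mRNA cleavage and polyadenylation, by 0.52 (SE 0.07). LSM4 fell by 0.30 (SE 0.05). LSM10, a component of the U7 particle that directs histone mRNA cleavage, rose by 0.29 (SE 0.06).

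Histone chaperones hand new histones to DNA. Of 18 chaperones, 8 fell and 0 rose in limma (0 higher at an unadjusted p under 0.05), with a median change of −0.14. ASF1B fell by 0.78 (SE 0.05), the replicative helicase subunit and H3-H4 binder MCM2 by 0.62 (SE 0.05), the FACT subunit genes SUPT16H by 0.50 (SE 0.05) and SSRP1 by 0.34 (SE 0.04). Over all 4 lists, 20 of the 56 genes reported fell and 2 rose, where 11.6% of all genes fell and 8.45% rose. Brighter genes were called more often. When the dimmest 40% of genes were left out, the lists lost only H2AJ, H3-3A, H3-5 and TONSL. Of the listed genes that stayed, 25 fell and 5 rose, where 23.3% and 17.2% of all remaining genes did. The share of listed genes that fell was thus still the larger, in lists chosen with earlier results known. Whether the lists differ from the cluster genes was not tested, and most of the latter are dim while most listed genes are bright.

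**Figure D4:**
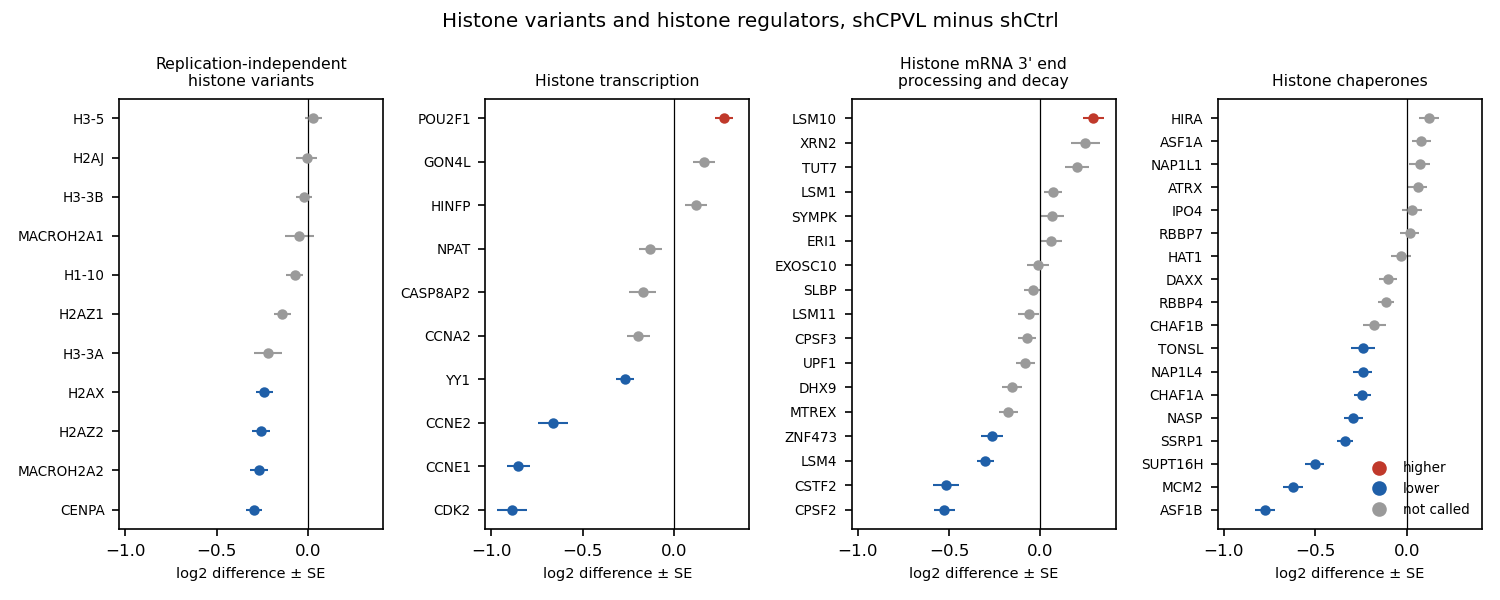
Log2 difference (shCPVL minus shCtrl, bars are SE of the fit on 6 arrays) of the reported genes in 4 lists of histone variants and histone regulators. Blue points fell, red points rose and grey points were not called. POU2F1 and LSM10 are the 2 genes that rose, and the 8 chaperones that fell lie between −0.24 and −0.78.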

How the data were processed

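RNA was measured on 6 Affymetrix arrays, 3 shCtrl and 3 shCPVL. The authors deposited log2 values from RMA, as the submitters' processing notes have it (version and genome build not given in the sources used here). RMA equalises the arrays, so changes are relative to the bulk of probe sets and a general shift in RNA cannot be seen. The authors' deposited table of their own comparison holds p-values, a log2 fold change, a linear fold ratio and a signed fold score, and gave each probe set's Entrez identifier and alignment. Arrays of a group correlated at 0.9974 to 0.9986. The number of arrays limits the precision.

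Probe sets with exactly 1 identifier were named through NCBI RefSeq (GRCh38.p14, names and neighbours only), and the probe set of highest mean over the 6 arrays stood for each gene. Differences are shCPVL minus shCtrl, tested with limma 3.58.1 under R 4.3.3 (linear model, empirical Bayes, two-sided, Benjamini-Hochberg over 18712 genes, called under 0.05), checked on simulated data. "Rose" and "fell" mean called. Single values used scipy 1.17.1 exact permutation tests.

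All measured members are named, values per array are printed for called members, and at most 4 called genes per list are described, with NPAT and SLBP added after their values were seen. One gene of the variant list is not reported here. Members, lists and motifs were chosen with earlier results of these data known. Same-numbered arrays of the groups had deviations that correlated at −0.282, 0.116 and 0.262, so the replicate numbers were not taken as pairs. Alternatives were other scalings, variance models, array weights, probe set choices, filters, a replicate block, a minimum fold of 1.2 and the removal of each array.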

Additional observations from a re-analysis of the deposited data

How the results depend on the processing

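The calls of H2AC6 and H2BC12 held under every alternative that gave a value, with changes of 1.18 to 1.33 and 0.48 to 0.996, but H2AC6 has no probe set outside the x_at and s_at kinds, like 13 other members. H2BC5, H4C3, H4C2 and H3C4 lost their calls only against a minimum fold of 1.2. Reversals were H2BC21 with its probe sets' median (−0.033) and H2BC18 without x_at and s_at probe sets (0.17). Members called higher and lower numbered 13 and 18 with array weights, which called 3851 and 5910 of all genes and gave shCtrl replicate 1 and shCPVL replicate 2 most weight. They numbered 4 and 1 without the dimmest 40% of genes, 3 and 0 against a fold of 1.2 (limma's treat, 2 lower at an unadjusted p under 0.05; 274 and 372 of all genes), and 11 and 7 over single probe sets. Without each array in turn members higher were 5 to 8 and lower 3 to 4, all genes higher 949 to 1495 (988 without shCtrl replicate 1, 949 without shCPVL replicate 2) and lower 1431 to 1924 (1450 and 1431), and regulators higher 2 to 3 and lower 17 to 20. With the replicate block 7 members were higher and 3 lower, H1-5 being lost (adjusted p = 0.051). The authors' deposited table called 7 higher and 3 lower at an FDR under 0.05, but not the same set: it left out H4C8 (0.0694) and H1-5 (0.0522) and included H2AC11 (0.0345). Regulators higher (2 as reported) numbered 4 after another quantile normalization, 5 with an intensity trend, also robust, 5 without the dimmest 40%, 9 with array weights and 0 against a fold of 1.2 (0 at an unadjusted p under 0.05), and regulators lower 33 and 7 in the last 2; the cause was not tested. Background signal limits the 50 dim members, of which 6 were called.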
